A study of Mus musculus with 9 samples.

Results

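The comparison set macrophages treated with WGFT17 directly against macrophages treated with JHU083, with 3 RNA-seq libraries on each side (6 of the 9 libraries of the series). The cells were bone marrow monocytes from c57 mice, labelled wild type, and were grown with GM-CSF, a growth factor of the myeloid lineage, for 7 days. Both groups were then exposed to their compound for 36 h. All genes with a mean FPKM (fragments scaled to transcript length and to depth) of at least 1 over the 9 libraries were compared, which kept 11798 of 28998 genes. The untreated libraries entered this filter and 1 alternative fit, and no value given here is relative to them. Each difference is that of one compound against the other, and which of the 2 compounds moved a gene cannot be told apart. The labels give no doses, so the 2 compounds, the only pair compared, are not known to have been given at matched strength.

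JHU083 releases DON, an analogue of glutamine that blocks many enzymes which take their amide nitrogen from it. For WGFT17 only the code name was used, without a structure or a target. As background, macrophages short of amino acids or of reducing power turn on well-described programmes. The kinase GCN2 senses uncharged tRNA and raises the translation of the transcription factor ATF4, which drives genes of amino acid supply. The factor NRF2, held in check by KEAP1, drives genes of glutathione and detoxification when cells are oxidised. Cultures grown from bone marrow with GM-CSF are known to hold macrophages and dendritic-like cells, and adherent stromal cells can persist in them.

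Library totals ran from 56624220 to 69112134 estimated counts, of which about 4 were taken to make up a read pair. The label of the cells held for macrophage markers: all 15 were detected, and their summed level was 33700 to 35800 CPM (counts scaled to library size) with JHU083 and 33100 to 35900 with WGFT17. JHU083 replicate 3 stood apart from the other libraries. The median absolute log2 difference between libraries was 0.0865 to 0.0917 among the WGFT17 libraries and 0.0913 between JHU083 replicates 1 and 2, but 0.178 and 0.171 between JHU083 replicate 3 and those replicates. The library also held retinal transcripts (15 markers summing to 43.1 CPM, against 3.79 to 5.99 in the other 5). Heart muscle transcripts summed to 282 and 440 CPM in JHU083 replicates 1 and 3, 4.67 in replicate 2 and 1.2 to 1.94 with WGFT17. Results are therefore given with and without JHU083 replicate 3 where it matters. Liver markers were read in both groups: 26 summed to 1430 to 2080 CPM with JHU083 and 982 to 1540 with WGFT17. Of the 25 liver markers tested, 2 were lower with WGFT17 and 23 did not pass. Whether the replicates came from separate animals or dishes is not labelled, and the p-values speak only of the spread among these libraries.

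The compounds separated on the first principal component, which held 72.7% of the variance of the 6 libraries, with the JHU083 libraries at -43.5, -32.8 and -47.4 and the WGFT17 libraries at 40.5, 42.6 and 40.5. By edgeR's quasi-likelihood test at an adjusted p under 0.05, 4785 of 11798 genes (40.6%) differed: 2132 (18.1%) were higher with WGFT17 and 2653 (22.5%) were lower. The 2 sides were unequal in size. At least 2-fold differences were found for 163 genes higher with WGFT17 and 931 lower, and at least 4-fold differences for 29 higher and 354 lower. The lower counts include the 11 tested heart muscle genes, with log2 differences of -14 to -4.61, which are left aside below. Most of the differences were small, with a median absolute log2 difference of 0.505 among the genes called. The 3 libraries of one compound lay entirely above or below the 3 of the other for 6296 genes (53.4%). Without JHU083 replicate 3, 5683 genes (48.2%) were called; 4629 genes were called the same way in both fits, 156 only with this library and 1054 only without it. For 5455 genes that were not called, the 95% interval of the difference lay within 1.5-fold in either direction.

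**Figure D1:**
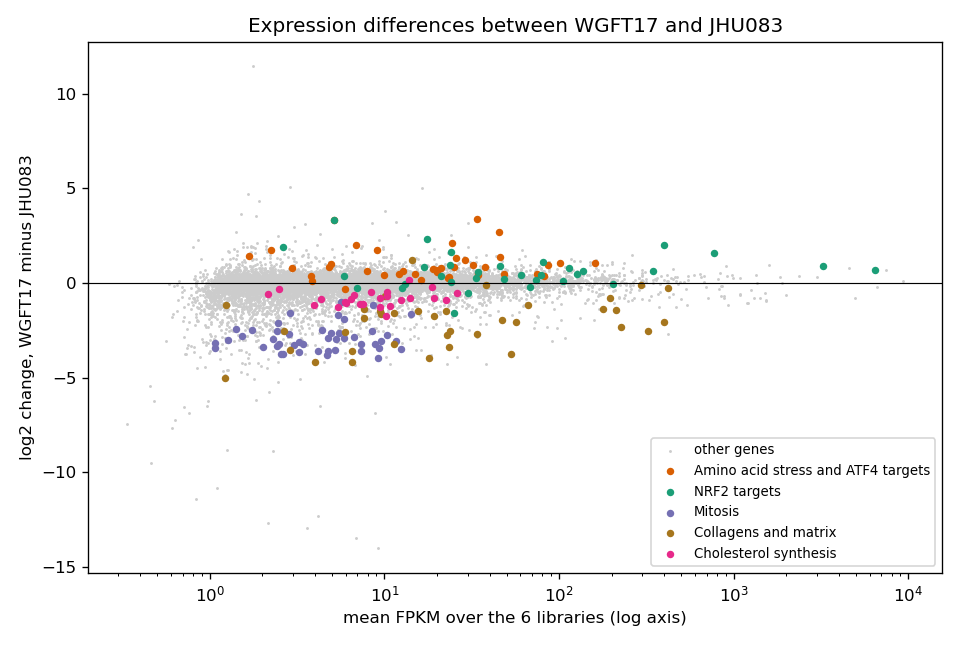
Difference between the compounds (log2, WGFT17 minus JHU083, vertical) against the mean FPKM of the 6 libraries (log axis, horizontal), 1 point per tested gene, with 5 gene lists in colour. All 46 mitotic genes, 34 of 37 matrix genes and 22 of 25 cholesterol genes were lower with WGFT17, and 35 of 40 ATF4 and 22 of 33 NRF2 list members were higher. Over all tested genes, 22.5% were lower and 18.1% higher.

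Genes of the amino acid stress response were higher with WGFT17 than with JHU083. Of 40 tested regulators and targets of ATF4, 35 were higher, against 18.1% of all genes, while 1 was lower and 4 did not pass. The median log2 difference of the list was 0.80, against 0.00348 for all tested genes. Atf4 itself was at 65.4, 64.7 and 66.3 FPKM with JHU083 and at 138, 135 and 138 with WGFT17. The groups were far apart and tight, a log2 difference of 1.05 ± 0.05 (SE; edgeR adjusted p = 5.63e-07). Ddit3 encodes CHOP, the stress factor that acts beside ATF4. It was at 12.5, 11.5 and 11.7 FPKM with JHU083 and 78.6, 76.8 and 81.1 with WGFT17, 6.54-fold higher (edgeR adjusted p = 2.15e-08). Trib3, a pseudokinase that restrains ATF4 and AKT, was at 6.84, 5.32 and 5.50 against 60.7, 61.8 and 63.8 FPKM, 10.4-fold higher. Chac1, which breaks down glutathione, was at 4.60, 4.27 and 3.39 against 13.6, 14.8 and 13.6 FPKM. Ppp1r15a, the phosphatase subunit that reverses the block of translation, was 4.28-fold higher. None of these genes overlapped between the groups, which was also so for 4711 of the 4785 genes called and for 53.4% of all genes. The member that was lower was Eif2ak3, the stress kinase of the endoplasmic reticulum, with a log2 difference of -0.31 (-0.26 without WGFT17 replicate 2, edgeR adjusted p = 0.0573).

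Many genes of amino acid supply were higher as well. Slc7a11, the cystine importer, was barely read with JHU083 (0.82, 0.82 and 1.08 FPKM) and was at 9.26, 9.84 and 9.00 FPKM with WGFT17, 10.2-fold higher (edgeR adjusted p = 1.68e-07). Slc3a2, the partner chain that carries it to the membrane, was at 102, 114 and 94.0 FPKM against 208, 224 and 215. The glycine transporter Slc6a9 was 3.95-fold higher and the leucine transporter Slc7a5 was 1.81-fold higher. Over the list of 24 tested amino acid transporters, 13 were higher, 1 was lower and 10 did not pass (median log2 difference 0.29). Without JHU083 replicate 3, 16 were higher and 3 lower. Cytosolic tRNA synthetases, which charge tRNA with amino acids, were higher for 14 of 20 and lower for none. For both lists, the shares over all genes were 18.1% higher and 22.5% lower. The enzyme for tryptophan, Wars, was at 17.4, 17.9 and 16.8 FPKM with JHU083 and 39.5, 40.9 and 41.1 with WGFT17. Sars for serine was 1.79-fold, Aars for alanine 1.85-fold and Lars for leucine 1.68-fold higher.

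Serine, one-carbon and proline enzymes were split, with 9 of 19 higher and 5 lower, where 18.1% of all genes were higher and 22.5% lower. Aldh1l2, a mitochondrial folate dehydrogenase, was at 4.09, 3.78 and 4.45 FPKM against 14.7, 14.9 and 16.6 with WGFT17. Psph, the last step of serine synthesis, was 2.03-fold higher and Mthfd2, the mitochondrial folate enzyme, 1.68-fold higher. Tyms, which makes thymidylate for DNA, went the other way, at 2.46, 2.71 and 2.76 FPKM with JHU083 and 0.61, 0.85 and 0.77 with WGFT17.

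The promoters of the ATF4 list were read for its known site, the C/EBP-ATF response element, spelled here TGATGNAA on either strand. Promoters are windows of 250 bases before to 50 after the start of transcription, from RefSeq on GRCm38.p6, found for 15184 genes of the table. Of the 34 members with a window, 9 (26.5%) held the letters, against 2.6% of all 15184 windows. The stretches shown are those of members that differed between the compounds, with the matched letters in capitals, each read 5′ to 3′ on the strand of its gene. Slc7a11 carries 2 matches in opposite orientation, the first 66 bases before the start (minus strand, chr3:50443633-50443699). Chac1 has its match 193 bases before the start (plus strand, chr2:119351029-119351076) and Asns, the asparagine synthetase, 23 bases before it (minus strand, chr6:7693205-7693252). In Nupr1, a small stress-induced nuclear protein, it lies 110 bases before the start (minus strand, chr7:126625553-126625600). A match is a description of letters, not of binding.
Slc7a11: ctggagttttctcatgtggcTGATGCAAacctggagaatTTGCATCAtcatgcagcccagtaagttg
Chac1: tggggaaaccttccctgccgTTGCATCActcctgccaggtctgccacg
Asns: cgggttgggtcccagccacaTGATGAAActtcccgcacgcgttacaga
Nupr1: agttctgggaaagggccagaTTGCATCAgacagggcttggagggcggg

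The list of enzymes that use glutamine, or that make glutamine and glutamate, holds both enzymes that take the amide nitrogen of glutamine and others that do not. Of 21 tested, 9 were higher with WGFT17 (6 to 10 with 1 library left out), 3 were lower and 9 did not pass, where 18.1% of all genes were higher and 22.5% lower. The median log2 difference was 0.19. Asns, which takes the amide of glutamine to make asparagine, was at 21.2, 20.4 and 23.8 FPKM with JHU083 and 42.4, 41.3 and 42.5 with WGFT17, 1.91-fold higher. The transaminases Got1 and Gpt2, which pass the amino group of glutamate on, were 1.60-fold and 1.77-fold higher. Asns and Gpt2 are also members of the ATF4 list. The 3 that were lower were Oat, the ornithine aminotransferase (71.7, 68.4 and 63.4 against 37.8, 34.9 and 36.7 FPKM), Glul, which makes glutamine (93.1, 93.9 and 74.1 against 64.8, 64.3 and 61.4), and Ctps, which makes CTP with glutamine nitrogen (16.9, 16.0 and 15.7 against 10.9, 10.7 and 11.6). Ppat, the first enzyme of purine synthesis, was at 3.81, 4.53 and 3.57 FPKM with JHU083 and 4.00, 3.52 and 4.16 with WGFT17. The 95% interval of its log2 difference ran from -0.30 to 0.21. For Cad, which starts pyrimidine synthesis, the interval was 0.02 to 0.38 (edgeR adjusted p = 0.0754). Cad passed without JHU083 replicate 2 (log2 difference 0.29, edgeR adjusted p = 0.0133).

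**Figure D2:**
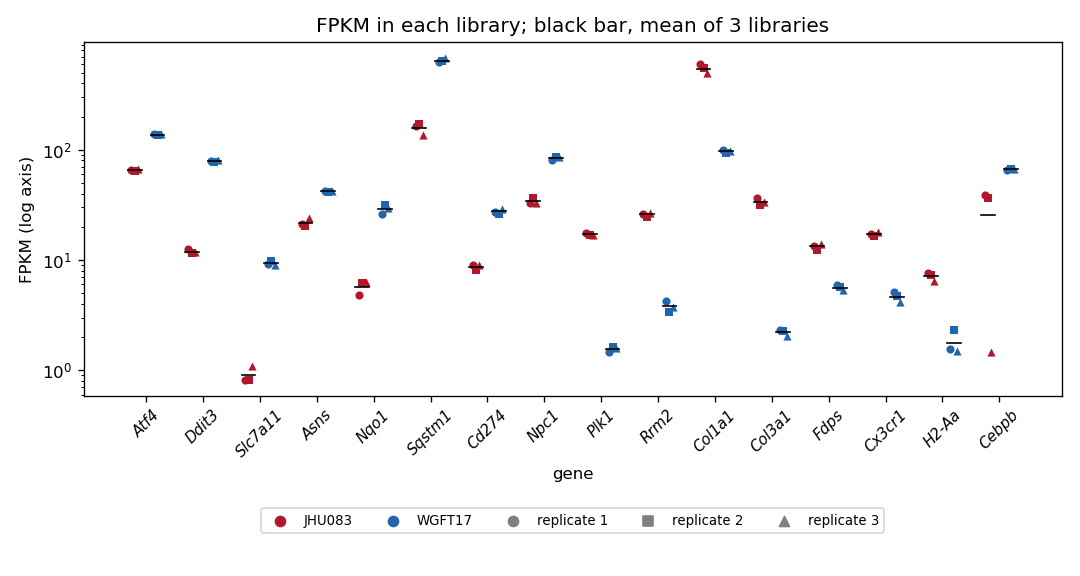
FPKM (log axis) of 16 genes in each of the 6 libraries, JHU083 in red and WGFT17 in blue, with the marker shape giving the replicate and a black bar the mean of 3 libraries. The groups do not overlap for any of these genes, as for 53.4% of all tested genes. Cebpb in JHU083 replicate 3 lies far under the other 2 JHU083 libraries.

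NRF2 targets and antioxidant enzymes were mostly higher with WGFT17: 22 of 33 were higher, 4 were lower and 7 did not pass (median log2 difference 0.46). The shares over all genes were 18.1% higher and 22.5% lower. Nqo1, a quinone reductase and a standard reporter of NRF2, was at 4.78, 6.12 and 6.28 FPKM with JHU083 and 26.2, 31.3 and 29.9 with WGFT17, 5.02-fold higher (edgeR adjusted p = 1.37e-06). Gclm, the regulatory subunit of the rate-limiting enzyme of glutathione synthesis, was at 10.8, 11.7 and 12.1 against 36.1, 37.3 and 36.0 FPKM. Hmox1, which breaks down haem, was at 397, 417 and 343 against 1080, 1179 and 1183 FPKM. All 3 genes were separated without overlap, as were 53.4% of all genes. Sqstm1 encodes p62, the autophagy cargo receptor that also displaces KEAP1 from NRF2. It was at 163, 172 and 135 FPKM with JHU083 and 620, 637 and 674 with WGFT17, 4.06-fold higher. Gsta4, a glutathione transferase for lipid aldehydes that is not on the list, was 5.93-fold higher. The 4 lower members were Gpx3, a secreted glutathione peroxidase (37.3, 32.7 and 42.1 against 13.1, 12.8 and 12.2 FPKM), the iron exporter Slc40a1, malic enzyme Me1, and Nfe2l2, the gene of NRF2 itself. Me1 did not pass without JHU083 replicate 1, WGFT17 replicate 1 or WGFT17 replicate 3 (edgeR adjusted p = 0.0518, 0.0565 and 0.076). Nfe2l2 was at 72.3, 73.4 and 73.2 FPKM with JHU083 and 65.1, 61.6 and 62.1 with WGFT17, a log2 difference of -0.23. Slc7a11 belongs to this list as well as to that of ATF4.

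The antioxidant response element, spelled TGACNNNGC on either strand, was in 9 of 28 promoters of the NRF2 list (32.1%) and in 14.0% of all windows. Of these 9 genes, Gclm, Srxn1, Gsta3, Prdx1 and Mgst1 were higher with WGFT17, Nfe2l2 and Me1 were lower, and G6pdx and Sod1 did not pass. Both genes shown were higher, and capitals mark the match. Gclm has its match 134 bases before the start (plus strand, chr3:122245403-122245451) and Prdx1, a peroxiredoxin that was 1.53-fold higher with WGFT17, 133 bases before it (plus strand, chr4:116685446-116685494).
Gclm: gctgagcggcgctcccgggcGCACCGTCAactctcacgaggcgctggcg
Prdx1: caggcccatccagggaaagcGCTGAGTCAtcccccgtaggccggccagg

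Lysosomal and proteasome genes were mostly higher with WGFT17, by small amounts. For the counts that follow, the shares over all genes were 18.1% higher and 22.5% lower. Of 42 lysosomal genes, 27 were higher with WGFT17 and 5 lower (median log2 difference 0.33), with 2 lower without WGFT17 replicate 2 or 3 and 3 lower without WGFT17 replicate 1. Ctsl, a cysteine protease of the lysosome, was at 145, 153 and 156 FPKM with JHU083 and 310, 331 and 310 with WGFT17. Gpnmb, a glycoprotein of stressed lysosomes, was at 1001, 1200 and 1007 against 2061, 2172 and 2075 FPKM. The glycosidases Gla and Neu1 were 1.69-fold and 1.56-fold higher. Npc1, which moves cholesterol out of the lysosome, was at 33.0, 36.6 and 33.1 against 80.8, 85.2 and 86.1 FPKM, 2.43-fold higher, and the lipid droplet coat gene Plin2 was 2.01-fold higher. Autophagy genes were higher for 15 of 29 and lower for 2, and for 10 to 15 and 2 to 3 with 1 library left out. Among 36 proteasome subunits, 24 were higher and 1 was lower, and 15 were higher without WGFT17 replicate 2. The largest difference of the list was that of Psmb5, a catalytic subunit, at 57.6, 58.7 and 49.6 against 86.4, 98.8 and 90.0 FPKM.

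Genes for making ribosomes were also higher. Of 35 ribosome biogenesis and growth genes, 20 were higher with WGFT17 and none was lower (median log2 difference 0.36), among them Polr1a, the large subunit of RNA polymerase I, at 1.49-fold and Mybbp1a, a nucleolar protein, at 1.43-fold. Myc was at 17.1, 15.8 and 14.4 FPKM with JHU083 and 21.2, 19.6 and 22.0 with WGFT17. Cytosolic ribosomal proteins were higher for 24 of 76 and lower for 2, and the count depended on single libraries: 48 were higher without JHU083 replicate 3, 13 without WGFT17 replicate 2 and 14 without WGFT17 replicate 3. The median log2 difference was 0.12, and 0.20 without JHU083 replicate 3. Of all genes, 18.1% were higher with the 6 libraries. Ribosomal proteins have many processed copies in the genome, and how reads were shared among them is not given in the sources used here. Rpl4, for example, was at 335, 323 and 337 FPKM against 437, 424 and 451.

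The 13 protein genes of the mitochondrial genome were lower for 8 and higher for 1 with WGFT17, with a median log2 difference of -0.64. The cytochrome oxidase gene mt-Co1 was at 5798, 5703 and 7096 FPKM with JHU083 and 3815, 3676 and 3507 with WGFT17. For mt-Co3 the values were 1463, 1421 and 1962 against 832, 788 and 715 FPKM. JHU083 replicate 3 was the highest library for both, and without it the median of the list was -0.42, also with 8 genes lower. The 73 subunits of the respiratory chain and ATP synthase that the nucleus encodes mostly did not pass: 7 were lower, 3 were higher and 63 did not pass (median log2 difference -0.039). For 56 of them the 95% interval lay within 1.5-fold. Leaving out 1 library gave 2 to 13 lower, with 2 without WGFT17 replicate 1 or 3, 3 without WGFT17 replicate 2, 4 without JHU083 replicate 1 and 13 without JHU083 replicate 2. It gave 1 to 4 higher, with 1 without WGFT17 replicate 2. Of 31 enzymes of pyruvate entry and the TCA cycle, 23 did not pass, and for 30 the interval lay within 1.5-fold. Over all tested genes, 18.1% were higher and 22.5% lower, and for 60.9% the interval lay within 1.5-fold.

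Chaperones of the endoplasmic reticulum were split. Of 25 unfolded protein response genes, 6 were higher with WGFT17, 10 lower and 9 did not pass, where 18.1% and 22.5% of all genes were higher and lower. Ero1l, an oxidase for disulphide bonds, was 2.96-fold higher and the sensor Ern1 2.02-fold higher. The folding enzymes Pdia4 and Pdia6 and the chaperone Calr were lower, Calr at 368, 389 and 390 FPKM with JHU083 and 225, 212 and 206 with WGFT17. Hspa5, the main chaperone of the compartment, was at 196, 208 and 188 against 222, 212 and 214 FPKM and did not pass (edgeR adjusted p = 0.14).

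Cell division genes were far lower with WGFT17. All 46 tested mitosis and G2 genes were lower (median log2 difference -3.02, and -2.98 without JHU083 replicate 3), 45 of them at least 2-fold, where 22.5% of all genes were lower. Plk1, a kinase that drives entry into mitosis, was at 17.4, 16.8 and 17.0 FPKM with JHU083 and 1.47, 1.63 and 1.60 with WGFT17, 11.0-fold lower (edgeR adjusted p = 3.36e-08). Mki67, the proliferation antigen, was at 22.1, 20.7 and 25.7 against 2.32, 1.79 and 2.15 FPKM. Ccnb2, cyclin B2, was at 16.6, 16.1 and 19.0 against 0.74, 1.24 and 1.31 FPKM. The groups were separated by a wide margin in all 3 genes. The scaffold of the cleavage furrow Anln was 12.4-fold lower, the condensin subunit Ncapd2 6.65-fold and the cytokinesis regulator Racgap1 7.65-fold. The smallest difference of the list was that of Ncapg2, a subunit of condensin II, at 1.98-fold.

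DNA replication genes were lower by less. Of 45 S phase genes, 43 were lower with WGFT17 and none was higher (median log2 difference -1.04). Over all genes, 22.5% were lower and 18.1% higher. Rrm2, the regulated subunit of ribonucleotide reductase, was at 26.3, 24.5 and 26.7 FPKM with JHU083 and 4.27, 3.35 and 3.74 with WGFT17, 6.89-fold lower. Its partner Rrm1 was 3.98-fold, thymidine kinase Tk1 5.10-fold and the checkpoint mediator Clspn 5.12-fold lower. Cdt1, which licenses replication origins, was at 14.4, 16.9 and 13.2 against 13.6, 14.1 and 13.8 FPKM and did not pass (95% interval of the log2 difference -0.32 to 0.08). Cyclins, kinases and inhibitors of G1 were lower for 15 of 23 and higher for 2. The repressor E2f8 was 7.15-fold lower, and the D cyclins Ccnd1, Ccnd2 and Ccnd3 were 1.42-fold, 1.82-fold and 1.66-fold lower. The 2 higher members were the inhibitors Cdkn1c and Cdkn1a, the latter at 58.1, 56.2 and 52.8 against 66.7, 63.3 and 64.7 FPKM. Without WGFT17 replicate 1, Cdkn1a did not pass (edgeR adjusted p = 0.0632). Among 31 DNA repair genes, 17 were lower and 2 higher. Fancd2, which acts in crosslink repair, was 6.91-fold lower and Brca1, which acts in recombination, 3.45-fold.

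Mitotic promoters are known for the cell cycle genes homology region, a short element that recruits a repressor complex in resting cells, spelled here TTTGAA on either strand. It was in 29 of 38 promoters of the mitosis list (76.3%) and in 13.6% of all windows. The CCAAT box, CCAAT on either strand, was in 27 of the 38 (71.1%) and in 38.2% of all windows. The stretches shown are from 4 members that were lower and whose match lies before the start, and capitals mark the homology region. In Ncapd2 it lies 123 bases before the start (minus strand, chr6:125191684-125191729), in Ube2c, a ubiquitin-conjugating enzyme that was 12.2-fold lower, 29 bases before it (plus strand, chr2:164769880-164769925), and in Mki67 it occurs in 2 copies, the first 116 bases before the start (minus strand, chr7:135716452-135716515). Kif2c, a kinesin that takes microtubules apart and was 9.82-fold lower, has its match 103 bases before the start (minus strand, chr4:117178850-117178895).
Ncapd2: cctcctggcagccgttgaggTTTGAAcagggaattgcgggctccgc
Ube2c: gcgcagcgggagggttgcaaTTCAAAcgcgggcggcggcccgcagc
Mki67: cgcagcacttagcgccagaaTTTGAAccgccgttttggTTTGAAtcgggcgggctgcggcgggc
Kif2c: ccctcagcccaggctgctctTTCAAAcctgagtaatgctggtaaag

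**Figure D3:**
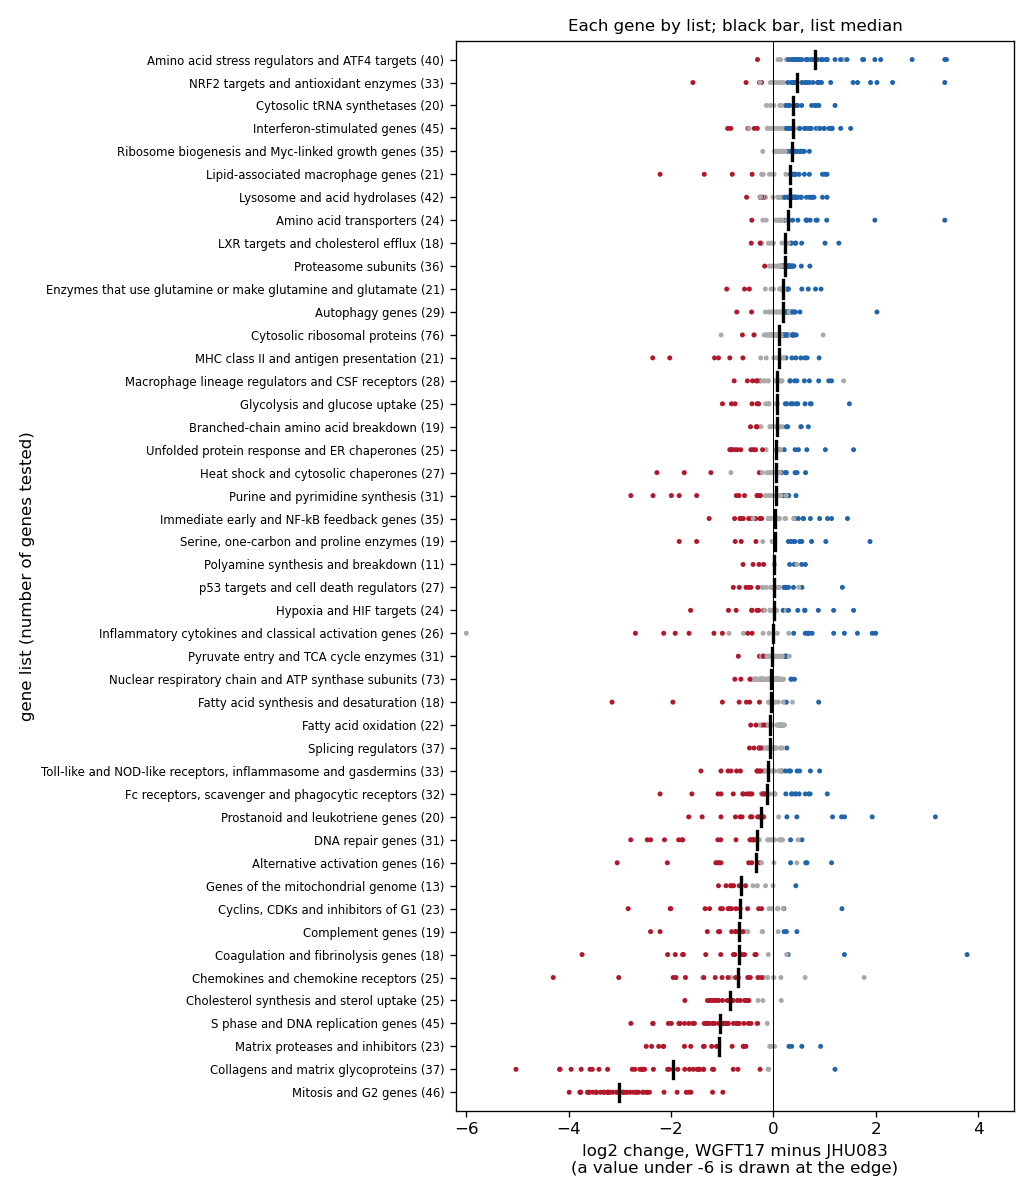
Difference between the compounds (log2, WGFT17 minus JHU083) of every tested gene, by gene list, for lists of at least 10 tested genes. Blue points were higher with WGFT17 and red points lower at an adjusted p under 0.05, grey points did not pass, and the black bar is the list median, which runs from -3.02 for mitosis to 0.80 for ATF4 targets.

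Cholesterol synthesis was lower with WGFT17. Of 25 genes of sterol synthesis and uptake, 22 were lower, none was higher and 3 did not pass (median log2 difference -0.84). Fdps, which builds the isoprenoid chain, was at 13.4, 12.3 and 14.0 FPKM with JHU083 and 5.88, 5.64 and 5.29 with WGFT17, 2.39-fold lower (edgeR adjusted p = 3.08e-06). Fdft1, which makes squalene, was 2.14-fold lower, and neither gene overlapped between the groups, as for 53.4% of all genes. Insig1, the feedback sensor of sterols, was 1.84-fold lower and Srebf2, the transcription factor of the pathway, 1.43-fold. The gene of its escort protein, Scap, did not pass (edgeR adjusted p = 0.0876), but did without JHU083 replicate 2 (log2 difference 0.21, edgeR adjusted p = 0.0423). Of 18 genes of fatty acid synthesis and desaturation, 7 were lower and 2 higher, where 22.5% of all genes were lower and 18.1% higher. Among the desaturases, Fads2 was at 10.7, 8.64 and 10.5 FPKM against 1.30, 1.04 and 1.05, and Scd2 at 43.7, 39.0 and 43.5 against 11.2, 10.8 and 10.7. Fads1 was 1.59-fold lower.

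A sterol response element of the form TCACNCCA, on either strand, was in 3 of 18 promoters of the cholesterol list (16.7%) and in 4.0% of all windows. It stands in capitals in the promoter of Hmgcs1, which makes the first committed precursor and was 1.73-fold lower (137 bases before the start, plus strand, chr13:119690194-119690241), and in that of Srebf2 (162 bases before it, plus strand, chr15:82147087-82147134).
Hmgcs1: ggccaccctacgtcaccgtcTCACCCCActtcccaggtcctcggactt
Srebf2: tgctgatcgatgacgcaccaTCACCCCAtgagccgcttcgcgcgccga

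Matrix genes were lower with WGFT17. Of 37 collagens and matrix glycoproteins, 34 were lower, 1 was higher and 2 did not pass, and the median log2 difference was -1.96. Over all genes, 22.5% were lower and 18.1% higher. Col1a1, the main fibrillar collagen, was at 595, 548 and 495 FPKM with JHU083 and 99.5, 92.8 and 97.2 with WGFT17, 5.72-fold lower (edgeR adjusted p = 6.24e-08). Col3a1 was at 36.3, 31.2 and 33.9 against 2.33, 2.25 and 2.04 FPKM, and Col6a3, a chain of the beaded filaments around cells, was 18.1-fold lower. Thbs1, the matricellular thrombospondin that macrophages also make, was at 692, 631 and 598 against 149, 172 and 143 FPKM. The higher member was Col18a1, with a log2 difference of 1.20. Matrix proteases and their inhibitors were lower for 16 of 23 and higher for 4, with the gelatinase Mmp2 at 89.3, 88.2 and 80.5 against 37.0, 36.1 and 39.9 FPKM and the macrophage elastase Mmp12 at 123, 151 and 129 against 54.5, 55.8 and 49.4.

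Heart muscle genes are left aside here. All 11 tested were lower with WGFT17, but only 3 did not overlap between the groups. Among the 6 libraries their transcripts were high only in JHU083 replicates 1 and 3. The count is therefore not read as a difference between the compounds. The next 8 genes are from the 12 largest differences on the lower side. Sfrp1, a secreted WNT antagonist, was at 10.4, 6.97 and 8.12 FPKM with JHU083 and 0.11, 0.07 and 0.09 with WGFT17, 90.1-fold lower. Has2, which makes hyaluronan, was at 6.43, 5.92 and 6.71 against 0.18, 0.15 and 0.22 FPKM. Cxcl12, the stromal chemokine, was at 45.7, 40.1 and 43.7 against 2.21, 1.98 and 2.45 FPKM. A lack of overlap was part of the rule that chose all 8. The matrix inhibitor of calcification Mgp was 29.9-fold, the growth factor binder Igfbp5 20.5-fold, Dkk3 19.3-fold, the pericyte marker Cd248 19.2-fold and the smooth muscle gene Cnn1 18.3-fold lower.

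Markers of fibroblasts and stromal cells moved with these genes. Their 15 markers summed to 9980 to 11200 CPM with JHU083 and 2870 to 3040 with WGFT17, and none was at 0 in either group. All 10 that were tested were lower, where 22.5% of all genes were lower. The 11 markers of smooth muscle and pericytes summed to 2300 to 2790 against 346 to 418 CPM. The platelet-derived growth factor receptor genes Pdgfrb and Pdgfra, which define stromal cells, were at 21.3, 20.4 and 18.1 against 6.13, 6.10 and 5.52 FPKM and at 4.87, 4.07 and 4.51 against 2.02, 2.58 and 2.19. Thy1, a stromal marker that was not tested, overlapped between the groups, at 1.25, 1.03 and 0.41 FPKM with JHU083 and 0.78, 0.54 and 1.3 with WGFT17. Of the 10 tested markers, Col1a1, Col1a2, Col3a1, Dcn, Postn, Lox and Fbn1 are also on the matrix list, so the 2 counts share these genes. The part of these cells in the matrix result was not tested. In bulk RNA, fewer cells of a type and less RNA per cell cannot be told apart. The same holds for the cell division genes, whose cell of origin these data do not give.

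**Figure D4:**
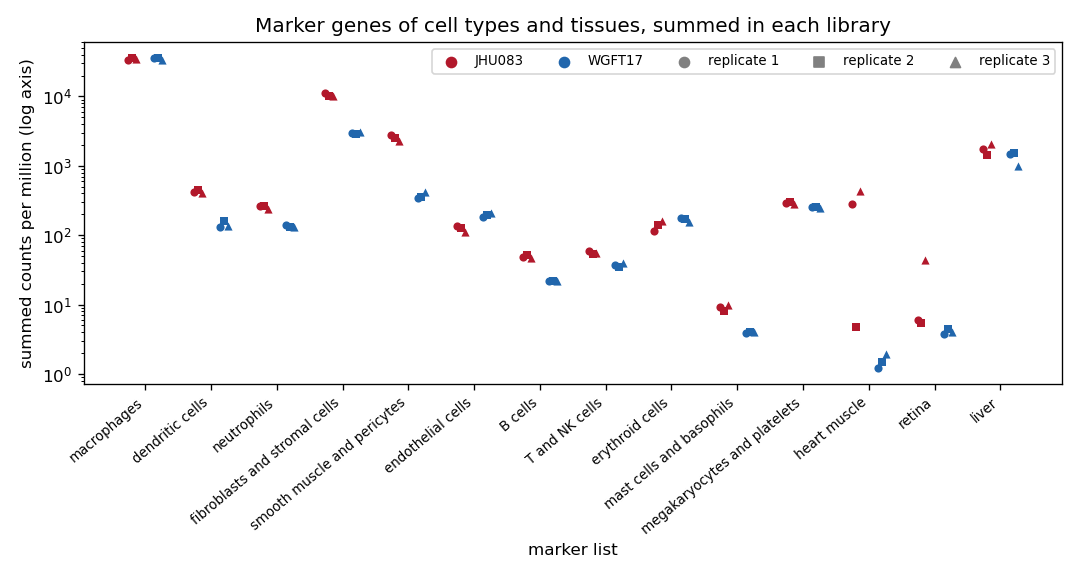
Summed CPM (log axis) of the marker genes of 14 cell types and tissues in each of the 6 libraries, JHU083 in red and WGFT17 in blue, with the marker shape giving the replicate. Macrophage markers lie at 33100 to 35900 in all 6 libraries, stromal markers at 9980 to 11200 with JHU083 and 2870 to 3040 with WGFT17, and heart muscle markers are high in JHU083 replicates 1 and 3.

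Of 15 macrophage markers, 4 were higher with WGFT17, 6 lower and 5 did not pass, where 18.1% of all genes were higher and 22.5% lower. Adgre1, which encodes F4/80, was at 255, 271 and 244 FPKM with JHU083 and 268, 250 and 241 with WGFT17, with a 95% interval of the log2 difference of -0.18 to 0.10. Lyz2, lysozyme, did not pass either (edgeR adjusted p = 0.359), and Csf1r, the receptor of macrophage growth factor, was 1.26-fold lower. Itgax, which encodes CD11c, an integrin of dendritic cells and some macrophages, was at 35.2, 41.8 and 33.3 against 7.48, 8.71 and 7.83 FPKM, 4.64-fold lower. Mrc1, the mannose receptor, was at 123, 122 and 120 against 64.6, 62.3 and 55.3 FPKM. Among 16 genes of alternative activation, 9 were lower and 4 higher with WGFT17. Arginase, Arg1, was at 2.55, 1.54 and 2.14 against 3.76, 3.08 and 1.83 FPKM, with overlap. The 15 markers of dendritic cells summed to 400 to 450 CPM with JHU083 and 133 to 158 with WGFT17, with Ccl17 and Siglech at 0 in all WGFT17 libraries.

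Of 21 genes of antigen presentation, 7 were higher with WGFT17, 6 were lower and 8 did not pass, where 18.1% of all genes were higher and 22.5% lower. Among the lower members, the MHC class II gene H2-Eb1 was at 10.7, 9.14 and 7.98 FPKM with JHU083 and 2.07, 1.99 and 1.40 with WGFT17, its relative H2-Aa at 7.68, 7.31 and 6.50 against 1.54, 2.30 and 1.49, and the invariant chain Cd74 at 86.8, 88.0 and 84.0 against 37.9, 43.8 and 36.3. The classical class I genes H2-K1 and H2-D1, named after their values were seen, were higher, with log2 differences of 0.66 and 0.89, and so was B2m, their light chain, at 0.44. The summed dendritic markers moved with these class II genes, but of the 4 dendritic markers that were tested, H2-Aa, H2-Ab1 and Cd74 are antigen presentation genes themselves. The defining dendritic genes Flt3 and Xcr1 were at most 0.04 FPKM in every library, and Zbtb46 was at 0.16, 0.28 and 0.17 against 0.13, 0.16 and 0.29.

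Chemokines and their receptors were lower for 15 of 25 and higher for none (median log2 difference -0.69). Cx3cr1, the fractalkine receptor of resident macrophages, was at 17.2, 16.6 and 17.8 FPKM with JHU083 and 5.09, 4.69 and 4.16 with WGFT17. Its ligand Cx3cl1 was 3.89-fold lower and Ccr2, the receptor of recruited monocytes, 8.12-fold lower. Without JHU083 replicate 3, 14 of these genes were lower and 1 was higher. Complement genes were lower for 11 of 19 and higher for 3, where 22.5% of all genes were lower and 18.1% higher.

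Inflammatory genes moved both ways, 11 of 26 higher (7 without WGFT17 replicate 1) and 8 lower. Of all genes, 18.1% were higher and 22.5% lower. Cd274, the gene of the checkpoint ligand PD-L1, was at 9.01, 8.13 and 8.99 FPKM with JHU083 and 27.4, 26.4 and 28.7 with WGFT17, 3.12-fold higher (edgeR adjusted p = 3.08e-07). Tnf was at 6.42, 6.05 and 9.21 against 13.7, 11.4 and 12.1 FPKM, and Vegfa, the angiogenic factor, was 2.26-fold higher. The interleukin-1 receptor antagonist Il1rn was lower, at 12.2, 12.3 and 12.2 against 1.86, 2.07 and 1.79 FPKM. Inhba, a subunit of activin, was 3.13-fold lower. Of 35 immediate early and feedback genes, 10 were higher and 10 lower, where 18.1% of all genes were higher and 22.5% lower. Fos was 2.73-fold higher and Zfp36, which destabilises cytokine mRNA, 1.87-fold.

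Interferon-stimulated genes were higher for 25 of 45 and lower for 5, with a median log2 difference of 0.39. Of all genes, 18.1% were higher and 22.5% lower. The 2′,5′-oligoadenylate synthetase family member Oasl2 was at 5.71, 5.63 and 6.00 FPKM with JHU083 and 11.8, 11.4 and 11.8 with WGFT17. The macrophage lectin Siglec1, which interferon induces but which is not on this list, was at 17.8, 17.5 and 16.3 against 36.2, 36.4 and 35.9 FPKM. The ubiquitin ligase Trim25 was 1.67-fold and the tethering protein Bst2 1.52-fold higher. Irf7, the interferon regulatory factor, was at 3.22, 2.55 and 6.37 FPKM with JHU083 and 9.32, 8.81 and 9.12 with WGFT17. Its log2 difference was 1.14, and 1.64 without JHU083 replicate 3.

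Lipid mediator genes held opposite differences. Ptgs2, the inducible cyclooxygenase, was at 3.25, 2.74 and 3.17 FPKM with JHU083 and 11.6, 12.2 and 11.5 with WGFT17, and Pla2g4a, which releases arachidonate for it, was 2.62-fold higher. Ptgir, the prostacyclin receptor, was at 1.80, 1.79 and 1.44 against 15.0, 14.2 and 16.4 FPKM. Over the 20 prostanoid and leukotriene genes, 7 were higher and 11 lower, where 18.1% of all genes were higher and 22.5% lower. Coagulation and fibrinolysis genes were lower for 13 of 18 and higher for 3, with the plasminogen activator Plat 13.3-fold lower. Among the higher members, coagulation factor V, F5, was at 1.52, 1.19 and 1.31 FPKM with JHU083 and 18.2, 19.1 and 18.9 with WGFT17, 13.8-fold higher (edgeR adjusted p = 2.91e-08).

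The next 5 genes are from the 12 largest differences on the higher side, a rule that required the groups not to overlap, and belong to no list above. Avil encodes advillin, an actin-severing protein, and was at 1.01, 1.47 and 0.43 FPKM with JHU083 and 29.0, 32.6 and 33.7 with WGFT17, 32.2-fold higher. Cdsn, corneodesmosin, an adhesion protein of skin, was at 6.22, 5.59 and 6.39 against 53.2, 52.0 and 57.3 FPKM. Chchd10, a protein of the mitochondrial intermembrane space, was at 2.56, 2.42 and 1.64 against 21.4, 21.5 and 20.4 FPKM. Angptl6, an angiopoietin-like secreted factor, was 8.64-fold higher. The carbonic anhydrase Car6 was at 0.24, 0 and 0.24 FPKM with JHU083 and 4.98, 5.31 and 6.50 with WGFT17, so its JHU083 level rests on very few reads. The nuclear noncoding RNAs Neat1 and Malat1 were 2.16-fold and 1.79-fold higher.

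The values of some genes moved with JHU083 replicate 3. Cebpb, a transcription factor of macrophage differentiation and a partner of ATF4, was at 38.8, 36.2 and 1.47 FPKM with JHU083 and 65.9, 67.2 and 66.3 with WGFT17. It did not pass with all 6 libraries (edgeR adjusted p = 0.191) and did without that library (log2 difference 0.81, edgeR adjusted p = 1.22e-06). Cox6a2, a cytochrome oxidase subunit of heart and skeletal muscle, was at 3.88, 0.94 and 7.08 against 23.5, 21.7 and 25.1 FPKM, with a log2 difference of 2.54, and 3.27 without the library. Its JHU083 values move with the heart transcripts of those libraries, whose part was not tested. The heart genes themselves were listed at 0 in all WGFT17 libraries for Actc1, cardiac actin, with 1926, 0 and 3789 estimated counts with JHU083, so that JHU083 replicate 2 was at 0 as well.

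**Figure D5:**
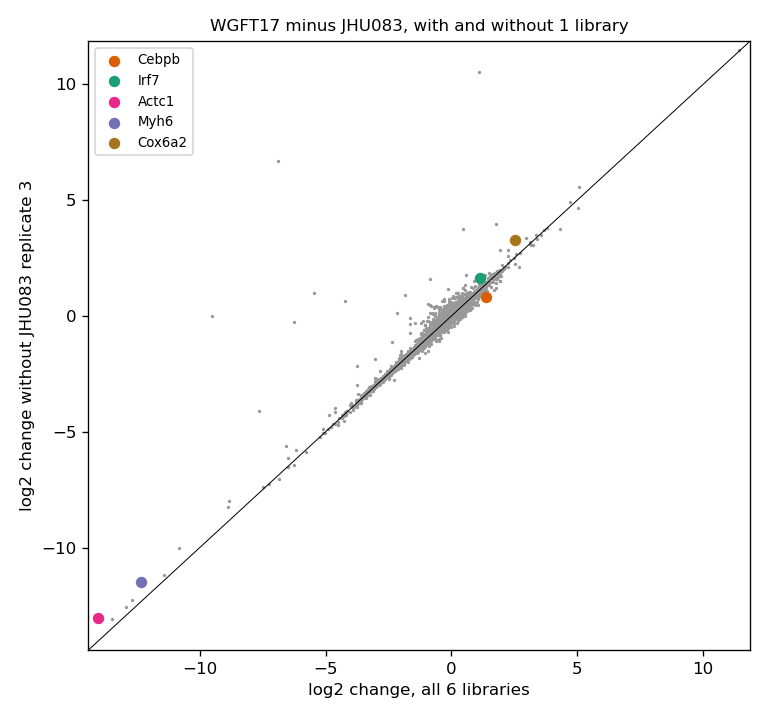
Difference between the compounds (log2, WGFT17 minus JHU083) of every tested gene with all 6 libraries (horizontal) and without JHU083 replicate 3 (vertical), with the diagonal of equal values and 5 genes in colour. Most genes lie on the diagonal, Cebpb moves from 1.37 to 0.81 and Irf7 from 1.14 to 1.64.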

How the data were processed

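Libraries of poly(A) RNA were stranded by the dUTP method and sequenced as read pairs, per the labels' protocols. Per the submitters' processing notes, tools were HISAT2 2.2.1, StringTie 2.1.6, cutadapt 1.9, edgeR and DESeq2 (no roles stated) and the build was mm9. The coordinates of the table equal those of GRCm38 for 26125 of 28926 gene identifiers (90.3%). The deposited table holds, per the file headers, for each gene and library an estimated count (expected count) and an FPKM value, both made by the authors. The counts are whole, so none was rounded; how FPKM was scaled is not given in the sources used here.

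The 6 libraries were fitted with edgeR 4.0.16 (R 4.3.3), TMM factors and the quasi-likelihood test, and p-values were adjusted by Benjamini-Hochberg over all 11798 genes, with calls at 0.05. The script was tested on simulated data. Alternatives were other size factors, filters, DESeq2 1.42.0, limma 3.58.1 on log2 FPKM, library weights, all 9 libraries in 1 fit, a replicate block, removal of a length trend and leaving out each library. Members and lists (48 gene lists, 14 marker lists) were chosen with earlier results of these data known. Named genes are those with the 12 largest differences each way (called with and without JHU083 replicate 3, at least 5 FPKM, no overlap, no heart, retina or liver marker), per list the 4 members of lowest adjusted p and the one nearest 0 whose 95% interval lies within 1.5-fold, a fixed set around glutamine, stress and macrophage activation, and those moved most by JHU083 replicate 3; the text gives a part of these. Others, chosen after their values were seen, are the members that went against their list and Chac1, Nupr1, Prdx1, Hspa5, Mki67, Ncapg2, Ccnd1, Ccnd3, Ube2c, Kif2c, Srebf2, Hmgcs1, Pdgfrb, Pdgfra, Lyz2, H2-K1, H2-D1, B2m, Flt3, Xcr1, Zbtb46, Ccl17 and Siglech, and genes named without values. Promoter windows are those of RefSeq on GRCm38.p6; for 75.7% the bases after the start open an annotated transcript. Some genes are not reported here.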

Additional observations from a re-analysis of the deposited data

How the results depend on the processing

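The counts of genes called were within 1.5 times of those in the report under every alternative but one. With a minimum of 5 FPKM, which tested 6807 genes, 2975 were called, 1371 higher and 1604 lower with WGFT17. Leaving out 1 library at a time gave 3721 to 5683 genes called, 1553 to 2644 higher and 2162 to 3039 lower. Library weights gave the most calls, 5818, and counts divided by 4 gave 4831. No gene was called in the opposite direction under any alternative. Whether equal replicate numbers pair the samples is not labelled. Deviations of libraries with the same number correlated at -0.0339, 0.076 and 0.00139, and those with different numbers at -0.126 to 0.133. With 3 libraries per group these values cannot decide it. With the number as a block 4322 genes were called, 1875 higher and 2447 lower.

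Ppat, which did not pass, ranged from a log2 difference of -0.109 to 0.0567 with 1 library left out, above 0 without JHU083 replicate 2 and at 0.0275 without WGFT17 replicate 2. The cause was not tested. The median kept its sign under all alternatives in 39 of 48 lists. Where it did not, the median of the main fit was within the spread between replicates, except in 4 cases. Branched-chain amino acid breakdown (-0.0092) and cytosolic chaperones (-0.0142) changed sign with the minimum of 5 FPKM. Pyruvate and TCA cycle enzymes changed sign with no minimum (0.00723). Purine and pyrimidine synthesis ranged from -0.00419 (without JHU083 replicate 3) to 0.0448 with 1 library left out. Of the 146 genes in the text, 138 kept their direction and their side of the threshold under all alternatives that tested them. Of the rest, Actc1 did not pass by limma on FPKM with a pseudocount of 1 or 0.1 or with library weights (adjusted p = 0.0856, 0.1 and 0.241), and Cad passed by DESeq2 (0.0493). The numbers of libraries, 3 against 3, and JHU083 replicate 3 limit the precision of small differences.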
